A study of Mus musculus with 4 samples.

Results

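The C/EBP transcription factors were followed in 4T1 cells, a mouse mammary carcinoma line grown in culture, through the probe sets whose annotated symbol was exactly Cebpa, Cebpb, Cebpd, Cebpe, Cebpg or Cebpz. Of these 6 symbols, 5 had a probe set, 1 each, among 22180 genes tested, and Cebpz was not analysed here. The cells carried either a hairpin with a scrambled sequence (scramble) or a hairpin against Ldha (shLDHA), the gene of lactate dehydrogenase A, which turns pyruvate into lactate at the end of glycolysis. Cells of both kinds spent 24 hours in complete medium. From each sample, 400 ng of total RNA went onto a whole-transcript Affymetrix array, with 2 arrays per group. Puromycin (10 µg/ml) had been used to select the shLDHA cells, which are a pool and not 1 clone. Whether the scramble cells went through the same selection is not given in the labels, so selection and knockdown cannot be told apart. The labels also do not say that the 2 samples of a group came from separate cultures, so a p-value here reflects the spread between arrays alone, and that spread may be technical. Values are RMA expression values on the log2 scale, and a gene passed where limma's test over all genes gave a Benjamini-Hochberg adjusted p under 0.05.

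C/EBP proteins bind DNA as dimers through a basic region and a leucine zipper (bZIP), and most of them pair with each other. Cebpb and Cebpd are the inducible members: inflammatory cytokines raise them, and they switch on acute-phase and cytokine genes in epithelium, liver and macrophages. Cebpa and Cebpe drive differentiation, Cebpa in liver, fat and myeloid precursors and Cebpe in late granulocytes. Cebpg lacks an activation domain and acts mainly as a partner of other bZIP proteins. Cebpz shares the name but is not a bZIP protein and takes part in ribosome assembly. The series bears on the C/EBP factors because Csf3 and Csf2, the genes of the growth factors G-CSF and GM-CSF, are known C/EBP targets.

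The label of the knockdown was checked first. The 2 scramble arrays gave Ldha 6.69 and 6.96, above the 6.31 and 6.15 of shLDHA (log2 change -0.59, SE 0.12, adjusted p = 0.0390 by limma). It did not pass with the replicate number as a block (0.0734), nor without scramble replicate 2 (0.128), shLDHA replicate 1 (0.0965) or shLDHA replicate 2 (0.163). Over all genes, 6.36% passed, 3.37% higher and 2.99% lower in shLDHA, and the median log2 change was 0.01. At an unadjusted p under 0.05 by limma, 4778 of the 22180 genes did. All 10 epithelial markers tested lay above the level that 95% of 1105 olfactory receptor genes did not exceed (4.24 in the brighter group), a level used here as a mark of dim signal. Of these 10, 3 rose (Epcam, Krt8 and Krt14) and 1 fell (Cldn7), but the count that passed went from 4 to between 1 and 2 with any 1 array left out, and to 9 with eBayes fitted to the trend of variance with level. Epcam and Krt8 lost their calls without any 1 array, and Krt8 also with the block. Of 12 leukocyte markers 10 lay below it, Ptprc, Itgam and Lyz2 among them, and so did 9 of 10 markers of fibroblasts and endothelium, none of which passed by limma (1 of the 10, Col1a2, at an unadjusted p under 0.05).

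Among the C/EBP factors, the RNA of Cebpd fell 2.05-fold and no other measured member passed. Cebpd read 4.82 on each scramble array, against 3.78 and 3.79 in shLDHA. Both shLDHA arrays lay about 1 log2 unit below both scramble arrays, and the arrays within each group were nearly equal. The scramble mean was 4.82 ± 0.00 (SD, n = 2), and that of shLDHA, at 3.78 ± 0.01 (SD, n = 2), was 2.05-fold lower (log2 change -1.04, SE 0.08, 95% interval -1.23 to -0.84, adjusted p = 0.00195 by limma). Of the 22180 genes, 91 had a larger fall. Cebpd passed in 12 of 12 alternative settings with the same threshold, leaving out the filter at the median level, which it entered through scramble alone. Without any 1 array its change stayed between -1.04 and -1.03. Its scramble level stood at percentile 56.3 of the brighter group means, and its shLDHA level lay below the mark of dim signal, where array values are compressed and a fold may be understated. Fewer cells that express a gene and less RNA per cell cannot be told apart in RNA of a whole culture.

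Of the 5 factors measured, 1 passed and it was lower, beside 2.99% of all genes that passed in this direction. The arrays of the groups did not overlap for 2 of the 5, Cebpd and Cebpa, beside 50.3% of all genes. The median change of the 5 was -0.09.

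**Figure D1:**
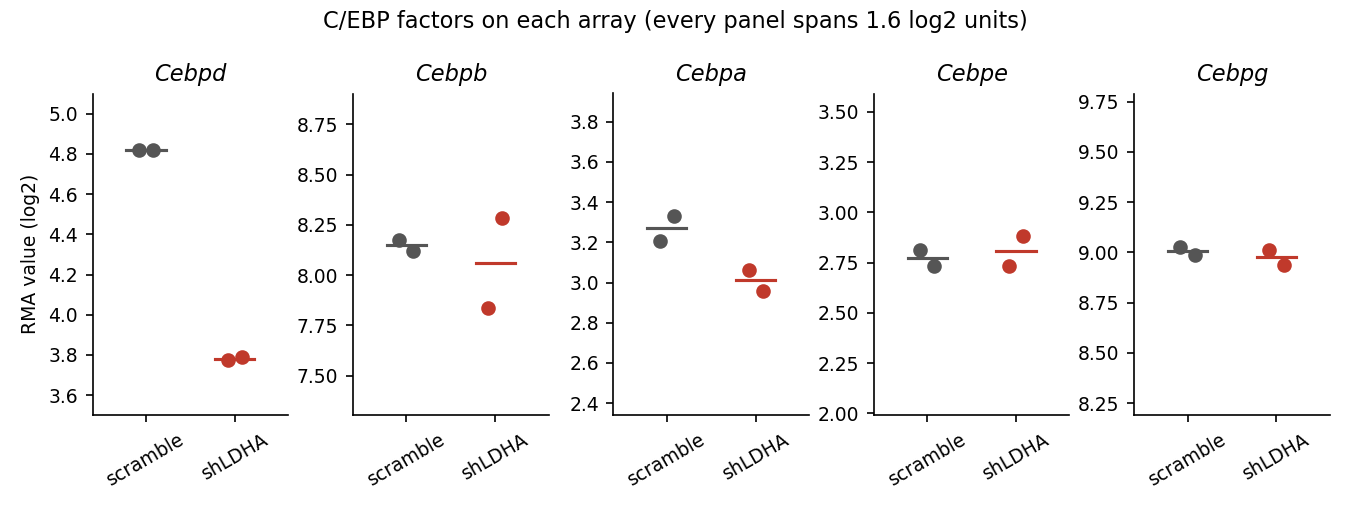
RMA values (log2) of each measured C/EBP factor on the 2 scramble (grey) and 2 shLDHA (red) arrays; points are arrays, horizontal bars are group means, and every panel spans 1.6 log2 units. Cebpd falls from 4.82 to 3.78, while the shLDHA arrays of Cebpb lie on both sides of the scramble arrays.

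Cebpb, the other inducible member, was bright, and its shLDHA arrays disagreed. It read 8.18 and 8.12 in scramble and 7.84 and 8.28 in shLDHA. The scramble arrays lay between the shLDHA arrays, so the groups overlapped. The change was -0.09 (SE 0.15, adjusted p = 0.802 by limma), with a 95% interval from -0.45 to 0.27. The gap of 0.45 between its shLDHA arrays was larger than that of 97.7% of genes, against 0.06 between the scramble arrays. Without shLDHA replicate 1 the change was 0.14 (adjusted p = 0.554), and without shLDHA replicate 2 it was -0.31 (0.212), so that the direction rested on 1 array. The Cebpb protein is made in long activating forms (LAP) and a short inhibitory form (LIP) from different start codons of the same RNA, which a probe set does not separate.

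The region before the Cebpb start is shown because the factor CREB, which binds cores of TGACG, is a known inducer of this gene. The sequence is the RefSeq entry for GRCm38.p6, chr2:167688665-167688914, plus strand, the 250 bases before the annotated start, 5′ to 3′, with each TGACG on either strand in capitals.
Cebpb: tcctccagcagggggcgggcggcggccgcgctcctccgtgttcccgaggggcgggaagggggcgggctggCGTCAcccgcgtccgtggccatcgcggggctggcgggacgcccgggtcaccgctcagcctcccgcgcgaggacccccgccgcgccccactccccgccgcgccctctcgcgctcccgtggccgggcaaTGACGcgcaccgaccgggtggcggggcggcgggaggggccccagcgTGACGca
It holds 3 matches, whose first bases are at positions -180, -53 and -7 from the start. The first is on the other strand and reads CGTCA. Of 32851 promoters of this length in the RefSeq table, 17.8% hold at least 1 match.

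Cebpa, a driver of differentiation in liver, fat and myeloid precursors, was dim in both groups. It read 3.21 and 3.33 in scramble and 3.06 and 2.96 in shLDHA. The shLDHA arrays were the lower ones and did not overlap with scramble, but the gene did not pass (log2 change -0.26, SE 0.09, adjusted p = 0.172 by limma; unadjusted p = 0.0288). The 95% interval ran from -0.48 to -0.04. Of all 22180 genes, 4778 had an unadjusted p under 0.05 by limma. All 4 values lay below the mark of dim signal, so they set little bound on the gene's RNA. Cebpa passed in 0 of 12 alternative settings in which it was tested.

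Its promoter is shown because C/EBP proteins are known to act on Cebpa itself. The 250 bases before the annotated start lie at chr7:35119043-35119292, plus strand, in GRCm38.p6 per RefSeq, with the C/EBP core TTGCG in capitals.
Cebpa: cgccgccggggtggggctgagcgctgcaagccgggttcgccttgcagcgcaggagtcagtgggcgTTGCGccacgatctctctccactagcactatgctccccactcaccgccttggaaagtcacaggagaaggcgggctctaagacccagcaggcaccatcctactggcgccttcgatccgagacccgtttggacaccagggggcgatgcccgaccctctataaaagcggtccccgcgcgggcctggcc
The only match begins at position -185 from the start, and 14.5% of all promoters in the table hold this core on either strand. The core is shorter than the site TTGCNNAA (N for any base) marked below in target promoters. These 250 bases do not hold that site on either strand. RefSeq promoters were found for 3 of the 6 symbols looked for, Cebpa, Cebpb and Cebpg.

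Cebpe, the granulocyte member, was dim on every array. It read 2.81 and 2.74 in scramble and 2.73 and 2.88 in shLDHA. The groups overlapped, and the change was 0.03 (SE 0.09, 95% interval -0.19 to 0.26, adjusted p = 0.889 by limma). Its sign turned to -0.0053 without scramble replicate 2 and to -0.04 without shLDHA replicate 2.

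Cebpg, the partner without an activation domain, was the member measured with the narrowest interval apart from Cebpd. It read 9.03 and 8.99 in scramble and 9.01 and 8.94 in shLDHA. The arrays overlapped, with a change of -0.03 (SE 0.08, adjusted p = 0.883 by limma) and a 95% interval from -0.23 to 0.17. The sign turned without shLDHA replicate 2, at 0.0035. The intervals of Cebpa, Cebpb, Cebpe and Cebpg did not reach that of Cebpd, although the difference between any 2 members was not tested.

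**Figure D2:**
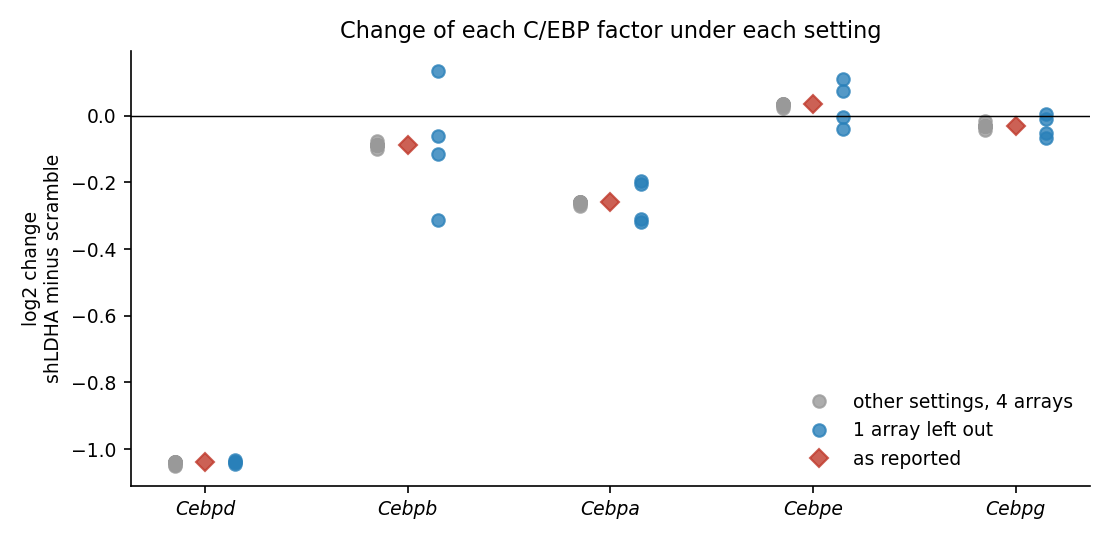
Log2 change of each C/EBP factor (vertical axis, shLDHA minus scramble) as reported (diamonds), in other settings that keep 4 arrays (grey) and with 1 array left out (blue). Cebpd stays between -1.05 and -1.03, and Cebpb runs from -0.31 to 0.14 when 1 array is left out.

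C/EBP proteins pair with some other bZIP factors, and 12 bZIP partners and relatives of C/EBP were examined. Of the 12, 1 was higher, 2 were lower and 9 did not pass, with a median change of 0.00. Atf3, a stress-induced repressor, read 9.46 and 9.46 in scramble and 8.72 and 8.72 in shLDHA (log2 change -0.74, SE 0.08, adjusted p = 0.00559 by limma). As with Cebpd, the arrays of each group were nearly equal and far apart from the other group, and the call held in 13 of 13 alternative settings.

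A pair of bZIP factors that bind the same D-box sites of clock-controlled genes with opposite effect moved in opposite directions. Dbp, the activator, read 5.49 and 5.22 in scramble and 6.04 and 6.24 in shLDHA (0.79, SE 0.12, adjusted p = 0.0185 by limma). Nfil3, the repressor, read 7.73 and 7.77 in scramble and 7.30 and 7.36 in shLDHA (-0.42, SE 0.08, adjusted p = 0.0379 by limma). For each gene all shLDHA values lay beyond the scramble values. Both calls rested on all 4 arrays or nearly so. Dbp did not pass without scramble replicate 2 (0.0526), shLDHA replicate 1 (0.0572) or shLDHA replicate 2 (0.0966). Nfil3 lost its call with the replicate block and without any 1 array (0.115 to 0.156 for the arrays). The other activators of this kind, Tef (0.17) and Hlf (0.04), did not pass.

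Ddit3, whose product CHOP is the C/EBP family member induced by endoplasmic reticulum stress, read 8.76 and 8.61 in scramble and 8.59 and 8.70 in shLDHA. Its groups overlapped (log2 change -0.04, SE 0.10, adjusted p = 0.854 by limma). Atf4, which raises Ddit3 under stress and can pair with Cebpb, changed by -0.06 and Atf5 by 0.28, and neither passed.

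**Figure D3:**
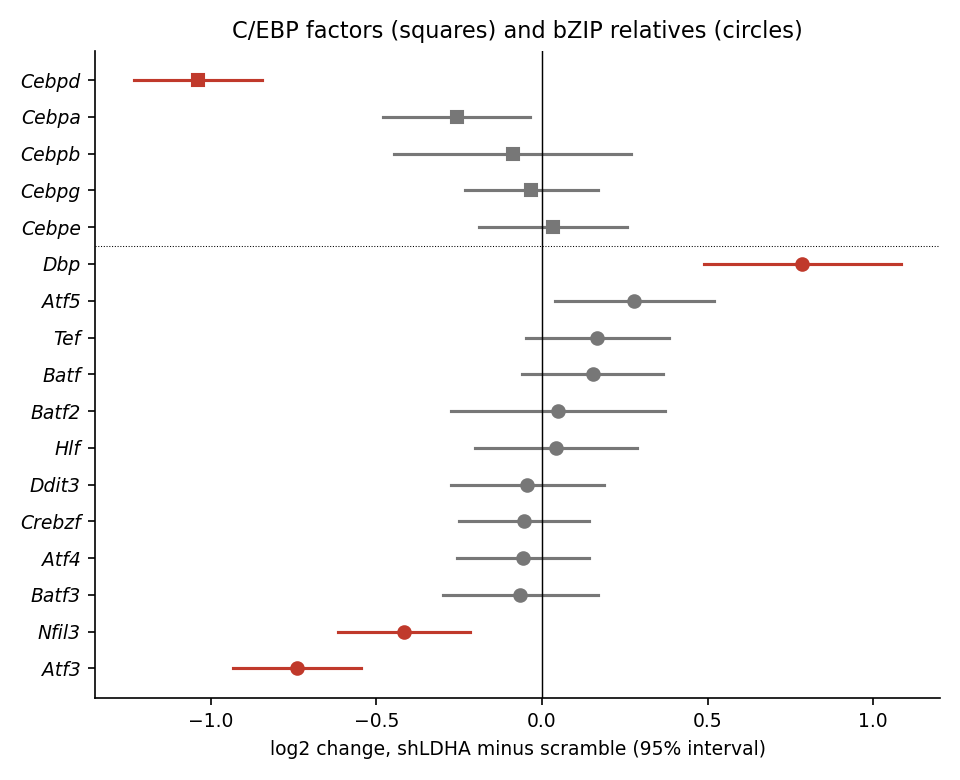
Log2 change (shLDHA minus scramble) of the 5 measured C/EBP factors (squares) and 12 bZIP relatives (circles), with 95% intervals from limma; red marks an adjusted p under 0.05. Cebpd at -1.04 and Atf3 at -0.74 lie lowest, and Dbp at 0.79 lies highest.

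Genes listed as regulators of C/EBP proteins were examined next. Of 14 tested, 1 rose, 0 fell and 13 did not pass (7.14% called, beside 6.36% of all genes), with a median change of 0.00. With genes below the median level left out 3 of the 14 passed, beside 2836 of the 11090 genes then tested. With eBayes fitted to the trend 4 did, beside 2806 of 22180. Id2 read 6.46 and 6.39 in scramble and 7.18 and 7.63 in shLDHA (0.98, SE 0.15, adjusted p = 0.0162 by limma). It encodes an inhibitor of helix-loop-helix factors, whereas C/EBP proteins are bZIP factors, and an effect of it on them was not tested. The pseudokinase genes Trib1 (0.01) and Trib2 (0.19), whose products send C/EBP alpha to degradation through the ubiquitin ligase Cop1 (0.05), did not pass. Gsk3b, the gene of a kinase that phosphorylates C/EBP proteins, changed by -0.39 (adjusted p = 0.0762), and Eif4e, a translation initiation factor linked to the choice of start codon in Cebpa and Cebpb RNA, by -0.25 (0.138).

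The cytokines, receptors and factors known to raise Cebpb and Cebpd changed in both directions. Of 21 tested, 4 fell, 2 rose and 15 did not pass (28.57% called, beside 6.36% of all genes), with a median change of -0.12. This list too was chosen with earlier results of these data known. Il1a, the gene of interleukin 1 alpha, a strong inducer of both factors, read 10.74 and 10.64 in scramble and 5.63 and 5.58 in shLDHA, a log2 change of -5.08 and the largest fall of the genes tested. The interleukin 6 family cytokine Lif read 8.01 and 8.13 in scramble and 7.03 and 6.73 in shLDHA (-1.19, SE 0.12, adjusted p = 0.00468 by limma). Neither gene's groups overlapped, and both calls held in 13 of 13 alternative settings.

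The receptor genes of the same pathways were split. Il1rap, the accessory chain of the interleukin 1 receptor, fell by 0.72 on the log2 scale (adjusted p = 0.00992 by limma), while Il1r1, the binding chain, rose by 0.75 (0.0131). Il6ra, the interleukin 6 receptor chain, rose by 0.58 (0.0159), and Tnf fell by 0.59 on the log2 scale (0.0187). These 4 lost their call without some arrays. For Il1rap this was shLDHA replicate 2 (0.0594) and for Il1r1 shLDHA replicate 1 (0.0597). Il6ra did not pass without scramble replicate 1 (0.0695), shLDHA replicate 1 (0.0749) or shLDHA replicate 2 (0.0826), and Tnf did not pass without the same arrays (0.0762, 0.0896 and 0.0614). The mean of all probe sets of Il1rap changed by -0.18 (0.291). Its other probe sets read from 2.62 to 3.11 on the arrays, below the mark of dim signal.

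The genes of the signal carriers between these cytokines and the Cebpd promoter did not pass. Their RNA does not show how active the proteins were. Stat3, the main factor by which interleukin 6 family cytokines raise Cebpd, read 7.77 and 7.78 in scramble and 7.78 and 7.57 in shLDHA, with overlapping groups (-0.10, SE 0.10, adjusted p = 0.634 by limma). Creb1 changed by -0.03, the shared receptor chain Il6st by 0.06, Jak1 by -0.03 and Rela, an NF-kB subunit, by -0.27. Il6 itself was dim, reading 2.72 and 2.42 in scramble against 2.30 and 2.31 in shLDHA, and did not pass (-0.26, adjusted p = 0.254).

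Known targets of C/EBP factors were examined by kind. Of 13 acute-phase genes tested, 2 fell, 0 rose and 11 did not pass (15.38% called, beside 6.36% of all genes), with a median change of -0.01. Lcn2, the gene of the siderophore-binding protein lipocalin 2, read 10.90 and 10.94 in scramble and 7.14 and 7.16 in shLDHA, 13.7-fold lower (log2 change -3.77, SE 0.08, adjusted p = 2.06e-05 by limma). Cp, which encodes the copper-carrying oxidase ceruloplasmin, read 8.78 and 8.80 in scramble and 7.89 and 7.81 in shLDHA (-0.94, SE 0.08, adjusted p = 0.00294 by limma). The groups of neither gene overlapped. The others with the smallest p were Hpx (0.29), Orm1 (-0.29), Hp (0.31) and Serpina3n (0.28). Of the 13 genes, 10 lay below the mark of dim signal in both groups.

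Of 19 cytokine and inflammatory enzyme targets, 9 fell, 1 rose and 9 did not pass, with a median change of -0.36. Over all genes 2.99% fell and 3.37% rose, with a median of 0.01. The list was chosen with earlier results of these data known, so its count and median are a description and not a test. Csf3 read 9.14 and 8.89 in scramble and 5.91 and 5.97 in shLDHA (-3.08, SE 0.11), and Csf2 read 5.92 and 5.99 in scramble and 4.02 and 3.86 in shLDHA (-2.02, SE 0.09). Both shLDHA values of Csf2 lay below the mark of dim signal, so its fold may be understated. The chemokine genes Ccl5 (-3.15), Cxcl5 (-3.02) and Cxcl1 (-2.82) also fell, and these 3 and Csf3 passed in 13 of 13 alternative settings. Csf2 passed in the 12 settings other than the filter at the median level, which it entered through scramble alone. Ptgs2, which encodes the prostaglandin-making cyclooxygenase 2, read 11.64 and 11.71 in scramble and 10.65 and 10.71 in shLDHA (-0.99, SE 0.08, adjusted p = 0.00269 by limma). The mean of both Csf2 probe sets changed by -1.17. The dimmer of these probe sets read from 2.91 to 3.56 on the arrays, below the mark of dim signal. The remaining falls, named after their values were seen apart from Tnf, were Nos2 (-1.11), Csf1 (-0.67) and Tnf (-0.59), and the rise was Tlr4 (0.47). The shLDHA means of Nos2 (4.14) and Tnf (3.62) lay below the mark of dim signal, as did the scramble mean of Tnf (4.20). Csf1 did not pass without shLDHA replicate 1 (0.0511) or shLDHA replicate 2 (0.0660), and Tlr4 lost its call with the block and without any 1 array (0.0681 to 0.138 for the arrays).

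The targets that mark differentiated cells stayed near the dim end. Of 17 granulocyte targets, 16 lay below the mark of dim signal, among them the Cebpe targets Ltf, Camp and Ngp. The 1 gene of this list that passed (5.88% called, beside 6.36% of all genes) was Il6ra. It rose and is also a gene of the inducer list. Of 15 adipocyte and liver targets, 14 lay below that mark and 0 passed, with Pparg at 0.01 and Adipoq at -0.20 (limma). At an unadjusted p under 0.05, 3 of the 15 did, Tat (0.35), Agt (0.25) and Pck1 (-0.20), beside 4778 of all 22180 genes. Of the leukocyte markers Cd68 fell (-0.91), with 11 of 12 not passing. The summed level of the 12 was 8.12 to 8.13 in scramble and 7.57 to 7.70 in shLDHA. This sum follows Cd68, by far the brightest of them (means 7.46 in scramble and 6.55 in shLDHA). Fcer1g, the next brightest, had means of 4.61 and 4.56, so the sum does not show a fall shared by the markers. The part of Cd68 in the falls above was not tested.

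**Figure D4:**
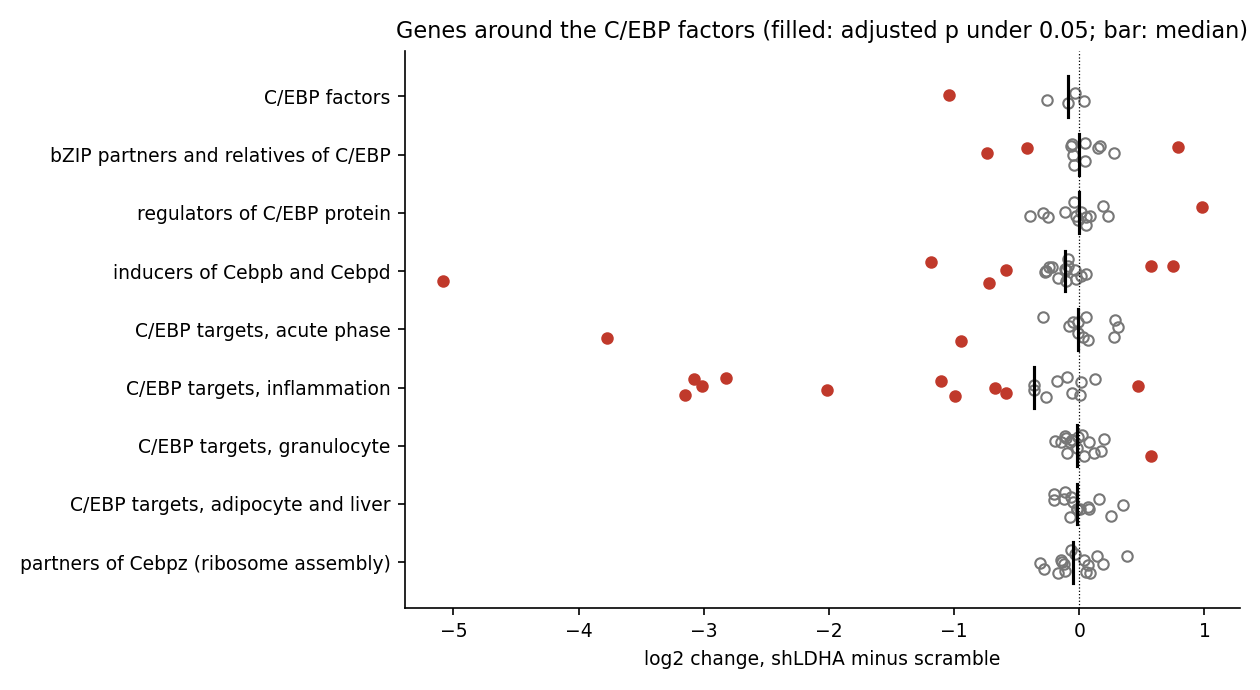
Log2 change (shLDHA minus scramble) of every tested gene in 9 lists; filled points have an adjusted p under 0.05 and black bars are list medians. The inflammatory targets have the lowest median, -0.36, and the granulocyte, adipocyte and liver targets gather around 0. The lists were chosen with earlier results of these data known.

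Promoters of targets that fell and of a target that did not are shown for comparison, with the C/EBP site TTGCNNAA in capitals. N stands for any base, and the palindrome TTGCGCAA, which also holds the core TTGCG, is 1 form of this site. Each sequence is the 250 bases before the start annotated by RefSeq in GRCm38.p6, 5′ to 3′ on the gene's strand; these need not be the starts used in 4T1 cells. Ptgs2 lies at chr1:150099781-150100030 on the plus strand, Lcn2 at chr2:32387740-32387989 on the minus strand and Orm2, an acute-phase glycoprotein gene that was dim and did not pass (-0.05), at chr4:63362199-63362448 on the plus strand.
Ptgs2: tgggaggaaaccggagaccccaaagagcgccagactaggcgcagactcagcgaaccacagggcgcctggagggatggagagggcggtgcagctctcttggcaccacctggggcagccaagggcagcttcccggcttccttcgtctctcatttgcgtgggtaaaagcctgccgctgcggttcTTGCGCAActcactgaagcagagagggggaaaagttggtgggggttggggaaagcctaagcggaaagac
Lcn2: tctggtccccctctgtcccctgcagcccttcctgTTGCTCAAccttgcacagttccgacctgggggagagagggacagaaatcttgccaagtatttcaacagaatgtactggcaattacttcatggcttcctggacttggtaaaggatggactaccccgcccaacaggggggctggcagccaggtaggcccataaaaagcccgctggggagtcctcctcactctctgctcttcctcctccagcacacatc
Orm2: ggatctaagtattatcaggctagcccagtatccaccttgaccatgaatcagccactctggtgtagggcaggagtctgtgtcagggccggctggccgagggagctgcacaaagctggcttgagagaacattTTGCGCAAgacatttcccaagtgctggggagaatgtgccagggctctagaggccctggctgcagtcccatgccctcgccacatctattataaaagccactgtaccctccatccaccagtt
Counted from the start, the site begins at position -69 in Ptgs2, -216 in Lcn2 and -120 in Orm2. Ptgs2 and Orm2 share the palindrome TTGCGCAA, which 0.164% of all promoters hold, while Lcn2 reads TTGCTCAA. These promoters are examples not chosen by a rule, so the shared palindrome is a description and not a test.

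The site stood in acute-phase promoters both of genes that fell and of genes that did not pass. TTGCNNAA stands in 9.56% of all promoters in the table on either strand. Of 11 acute-phase genes that were tested and have a promoter there, 9 hold it, 2 that fell and 7 that did not pass. In each of those 7 the brighter group mean lay between 2.43 and 3.75, below the mark of dim signal. A fall could hardly show in them, so the comparison says little about the site. Among the cytokine and inflammatory enzyme targets 3 of 11 hold it, Csf2, Il6 and Ptgs2, and 2 of the 5 that fell and have a promoter in the table. It stands in 5 of 16 granulocyte genes and 4 of 10 adipocyte and liver genes.

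For Cebpz, whose own probe set was not found, the genes it works beside in assembly of the large ribosomal subunit were measured. Of 16, 0 passed in either direction by limma at the adjusted threshold, with a median change of -0.05. At an unadjusted p under 0.05, 3 did, beside 4778 of all 22180 genes. Noc2l, the partner of Cebpz in its complex, changed by 0.09, and Noc3l by -0.28 (adjusted p = 0.113). Ebna1bp2 (0.38, adjusted p = 0.0626) and Nop2 (-0.32, 0.107) had the smallest p among the rest. With genes below the median level left out, 3 of the 16 passed, beside 2836 of the 11090 genes then tested. With eBayes fitted to the trend of variance with level, 3 of the 16 also passed, beside 2806 of 22180.

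The genes whose values over the 4 arrays were most like those of Cebpd were Gnb4, Zfp503, Ptpn22, Csrnp1 and Mical2. Likeness is the root mean square distance between the 4 values of each gene, each taken from the gene's own mean, and it ran from 0.035 to 0.037 log2 units. Gnb4 encodes a G protein beta subunit, Ptpn22 a tyrosine phosphatase of immune signalling and Mical2 an actin-oxidising enzyme. Their changes lay between -1.09 for Gnb4 and -0.99 for Zfp503. With 4 arrays in 2 groups this likeness says little more than that the falls were of the same size.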

How the data were processed

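Each of the 4 samples was measured on 1 Affymetrix array. Per the submitters' processing notes, the authors used RMA and R 3.4.0, and what they deposited is on the log2 scale; the sources used here do not give the annotation version. RMA sets the arrays to a common scale, so a shift of all genes at once would not show. Groups and replicate numbers came from the sample titles alone, because the cell type label reads LDHA in both groups. Of 41345 probe sets, 23521 had 1 gene symbol in the platform annotation, 1814 had several and 16010 none; the first kind entered, and the brightest probe set was kept for 1082 genes with several. The test was limma's (version 3.58.1, R 4.3.3, lmFit and eBayes) over all 22180 genes, with no filter and no covariate, two-sided, at a Benjamini-Hochberg adjusted p under 0.05. It had 2 residual and 4.52 prior degrees of freedom, and intervals are its 95% intervals. The number of arrays limits the precision. The code was tested on simulated data.

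The members and gene lists were chosen with earlier results of these data known. Named genes are the members, Ldha, Ddit3, Trib1, Csf3, Csf2, Il6 and Stat3, up to 6 genes of each list with the smallest p, and the 5 genes most like each member that passed; others were named after their values were seen. Alternatives were the replicate block, filters at the median and the 25th percentile of level, repeated quantile normalization, median centring, the mean of a gene's probe sets, every probe set tested, eBayes with trend, robust eBayes, each array left out (13 settings in all) and a threshold of 0.1. Figures were drawn with matplotlib 3.10.9.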

Additional observations from a re-analysis of the deposited data

How the results depend on the processing

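Cebpd kept its direction and its call in each alternative; without the filter at the median level, which it entered through scramble alone, its adjusted p ran from 0.000298 to 0.0201 by limma, and the count of C/EBP factors that passed was 1 in each. The sign of members that did not pass turned in 4 cases: Cebpb without shLDHA replicate 1 (range over single arrays left out -0.31 to 0.14), Cebpe without scramble replicate 2 (-0.0053) and without shLDHA replicate 2 (range -0.041 to 0.11), and Cebpg without shLDHA replicate 2 (range -0.067 to 0.0035). Of all genes 1410 passed, and 2836 did with genes below the median level left out, 2806 with eBayes with trend, 2391 at a threshold of 0.1 and 370 to 636 with 1 array left out, where fewer arrays are fitted. The count over the lists of related genes was 21 of 123 and ran from 14 to 29. The replicate block gave 838 genes, 1 C/EBP factor and 19 list genes. The labels do not say whether same-numbered samples were paired. The deviations of same-numbered arrays from their group means correlated at -0.03 across genes, which shows no shared shift but cannot settle the pairing. Of the named genes, Ldha, Krt8, Nfil3, Tlr4, Spidr and Ndufaf7 lost their calls with the block. For Cebpa and Cebpe, dim signal limits what a value near 0 shows.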

Other observations

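The tested genes next to each member in RefSeq gene order (GRCm38.p6), 2 on each side, were looked at by position and not for their values. The means of the 4 around Cebpd were lower in shLDHA, with log2 changes of -0.46 for Prkdc, -0.05 (SE 0.09, groups overlapping) for Mzt2, -0.50 for Spidr and -0.32 for Pkp2. Of these, Spidr, which encodes a scaffold of homologous recombination, passed (adjusted p = 0.0275 by limma), and it did not pass with the replicate block or without any 1 array (0.0710 to 0.122). Cebpa and Cebpg lie next to each other, with Pepd (-0.07) and Slc7a10 (-0.16) on either side, and none of the 4 passed. Around Cebpb the tyrosine phosphatase gene Ptpn1 had a change of -0.37 (adjusted p = 0.0984), and none of the 4 neighbours passed. Beside Cebpz, Ndufaf7, which encodes an assembly factor of respiratory complex I, rose by 0.49 (adjusted p = 0.0241 by limma), and it too did not pass with the replicate block or without any 1 array (0.0768 to 0.115).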
